A study of Mus musculus with 5 samples.

Results

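The genes described here are the ligands, receptors, modulators, signal transducers and targets of BMP, TGF-beta and activin signalling, 49 of the 12375 loci with a gene name in the table. They were chosen by name alone: a single gene name that begins with Bmp, Tgfb, Acvr, Inhb, Ltbp, Chrd, Fst, Smurf, or with Smad, Gdf or Tgif and a digit, or is Nog or one of Id1 to Id4. Another 6 loci hold such a name joined to that of a neighbouring gene and were left out, because their reads cannot be assigned to one gene. Of the 49, 3 match by name without being core components (Tgfb1i1, Tgfbi and Tgfbrap1).

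Expression was measured by poly(A) RNA sequencing in C57BL/6J mouse embryos, with 1 library for each of 5 tissues. Foregut and medial foregut are embryonic day 8.5 (E8.5) tissues, and the 3 organs, liver and the ventral and dorsal buds of the pancreas, date from E10.5. The labels name no mutant allele or treatment, and they leave out how the tissue was isolated and how many embryos entered a library (not given in the sources used here). With 1 library per tissue there is no replicate error to set a difference against, so no test was run and every value describes these libraries.

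As background, ligands of this superfamily bind paired type I and type II receptor kinases, which phosphorylate SMAD proteins that enter the nucleus with the shared partner SMAD4. BMP ligands act through SMAD1 and SMAD5 and switch on the Id genes, while TGF-beta and activin act through SMAD2 and SMAD3. In the early gut, BMP from the septum transversum mesenchyme favours liver over pancreas in ventral foregut endoderm, and activin-type signals from the notochord take part in the onset of the dorsal pancreas.

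Values are FPKM (fragments per kilobase of transcript and 1000000 mapped fragments), a unit scaled for transcript length, and the depth in reads is unknown. The libraries carried the markers of their labelled organs. The 7 hepatoblast markers found summed to 5366 FPKM in liver and to 64.4 in dorsal pancreas. The 7 pancreatic progenitor markers summed to 207 and 156 FPKM in ventral and dorsal pancreas against 14.5 in liver. Ventral pancreas also carried hepatoblast markers, at a summed 566 FPKM. Markers of other cells differed as well. The 8 cardiomyocyte markers, none of which was listed at 0 in any library, summed to 5162 FPKM in foregut, 8849 in medial foregut, 487 in liver, and 25.1 and 21.5 in ventral and dorsal pancreas. The 7 endothelial markers found summed to 89.4, 118, 73.3, 26.4 and 50.7 FPKM in the same order. The 10 gut mesenchyme markers summed to between 189 FPKM in ventral and 441 in dorsal pancreas. The 3 leukocyte markers found, of 7 listed, summed to 63.7 FPKM in liver and to 4.52 or less in each other library, with C1qb and Cx3cr1 listed at 0 in both E8.5 libraries. In such bulk tissue, fewer cells of a type and less RNA per cell cannot be told apart.

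Most of the pathway was expressed: 39 of the 49 genes (79.6%) reached 5 FPKM in at least 1 library, against 76.1% of all named loci. The other 10 were Bmp3, Gdf10, Tgfb3, Ltbp1, Acvr1c, Acvr2a, Bmpr1b, Chrdl1, Fstl4 and Id4, whose highest values ran from 0.552 (Bmp3) to 4.91 FPKM (Tgfb3). Levels varied more between libraries in this set than in the table at large. The median range between the highest and lowest library was 1.36 on the log2(FPKM + 1) scale, against 0.79 for all named loci, and 1.40 against 0.74 among those that reached 5 FPKM. The liver library held the lowest value for 24 of the 49 genes, or 49.0%, and for 39.9% of all named loci. Medial foregut held the highest value for 14 of them (28.6%, against 15.1% of all named loci).

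**Figure D1:**
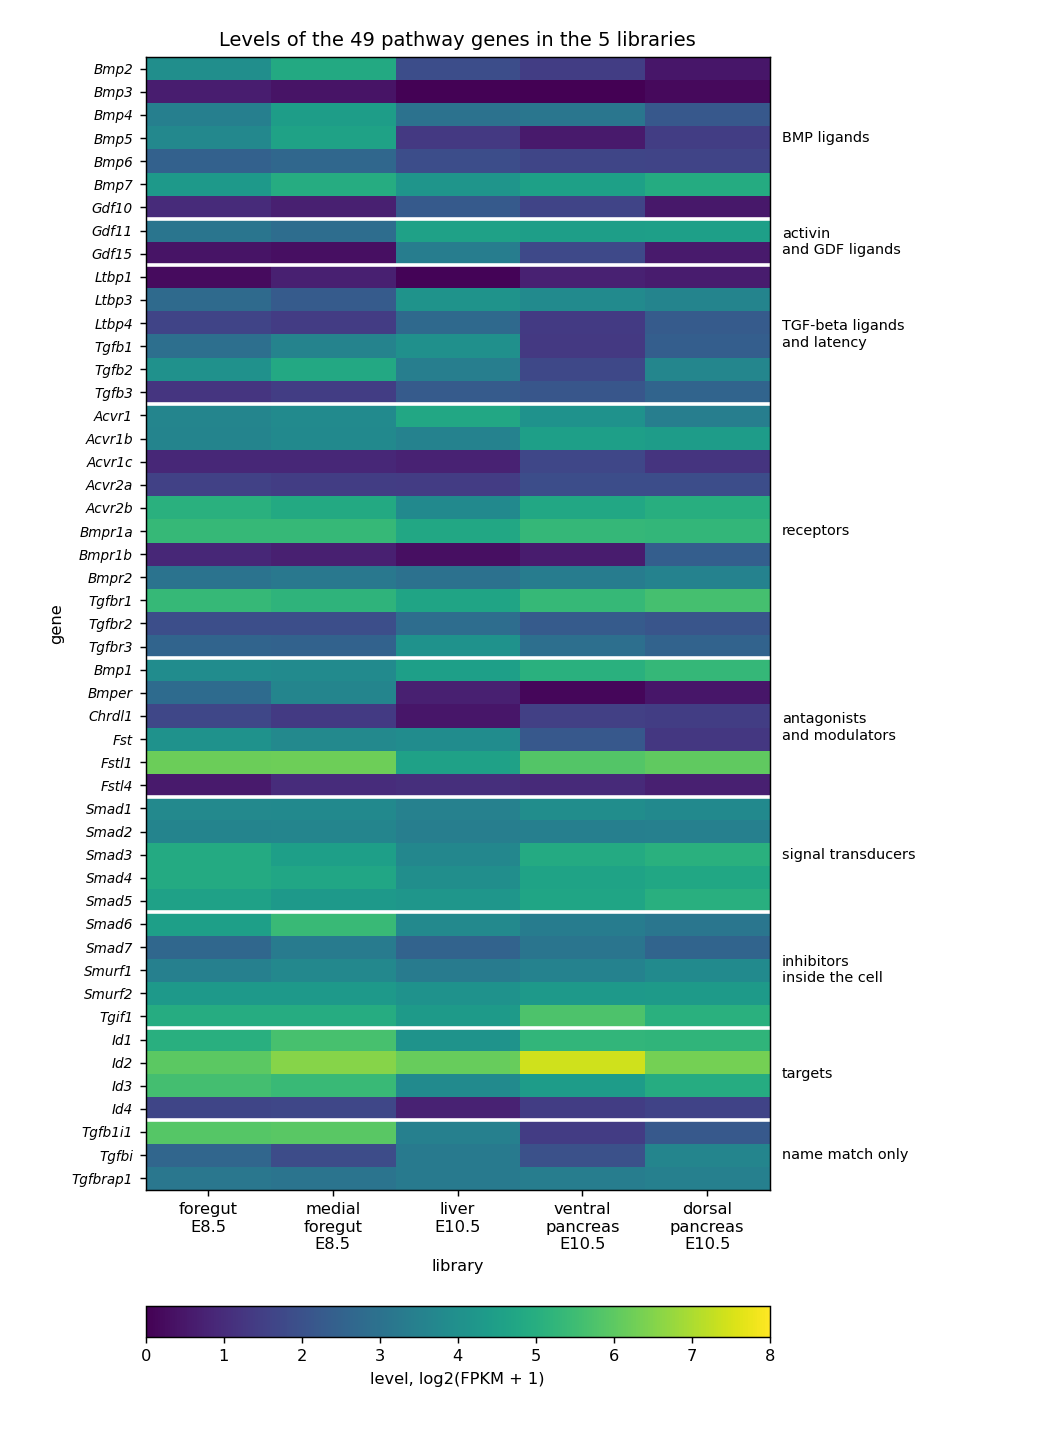
Level of each of the 49 genes (rows, grouped by role) in each of the 5 libraries (columns), as log2(FPKM + 1) on a colour scale from 0 to 8. Id2 in ventral pancreas, at 169.8 FPKM, is the brightest cell. Bmp2, Bmp5 and Bmper are brighter in the E8.5 columns than in the E10.5 columns, and Smad1 and Smad2 are nearly even across a row.

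Differences between libraries are given on the log2(FPKM + 1) scale, where changes of low genes look smaller than they are. To be counted, a gene had to differ by at least 1 (2 times in FPKM + 1), with 5 FPKM or more in the higher library, and to do so against each library where a comparison holds 2. The largest shares were lower at E10.5 than at E8.5. In liver 7 of the 49 genes (14.3%) were lower than in both E8.5 libraries, where the same rule counts 6.08% of all named loci. In ventral pancreas 8 genes (16.3%) were lower, with 3.31% of all loci, and in dorsal pancreas 7 (14.3%), with 2.80% of all loci. On the higher side stood 5 genes in liver (10.2%, all loci 5.24%), 3 in ventral pancreas (6.12%, all loci 6.38%) and 2 in dorsal pancreas (4.08%, all loci 4.36%), shares near those of all loci in both pancreatic libraries. These 3 comparisons share the E8.5 libraries, so their counts are not independent of each other. Against medial foregut alone, 11 genes were lower in liver (all loci 7.80%), and 8 against foregut alone (all loci 7.43%). Median-ratio rescaling gave 7 higher (all loci 6.04%) and 6 lower (5.60%) in liver. Totals of 1000000 gave 6 higher (all loci 11.8%) and 8 lower (4.72%) in ventral pancreas. In dorsal pancreas they gave 5 higher (8.23%) and 7 lower (3.88%). The shares of all loci on the higher side thus grew as well. Over all loci the libraries summed to between 437581 FPKM (dorsal pancreas) and 506529 (medial foregut). Scaling to 1000000 used the sums over named loci alone, which cannot exceed these, and therefore raised every value. The 5 FPKM minimum and the 1 in log2(FPKM + 1) stayed fixed.

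Among the E10.5 organs, liver was set against the pancreas first. In liver 5 genes (10.2%) were higher than in both pancreatic libraries, against 3.11% of all loci, and 4 (8.16%) were lower, against 5.36%. Rescaling by median ratios moved the median of all loci, for liver minus each pancreatic library, up by 0.19 (ventral) and 0.17 (dorsal), and then 5 genes were higher (all loci 4.66%) and 1 was lower (3.89%). When each library was scaled to sum to 1000000 over the named loci, 5 were higher (all loci 3.40%) and 7 lower (12.0%). The latter share was near that of all loci. In ventral pancreas 1 gene (2.04%, all loci 3.28%) was higher and 2 (4.08%, all loci 2.47%) were lower than in dorsal pancreas, which became 6 higher (all loci 5.56%) and 7 lower (4.37%) with totals of 1000000. Between foregut and medial foregut 0 genes were counted in either direction, where the rule counts 0.469% of all loci as higher and 0.275% as lower in foregut. In all, 22 of the 49 genes were counted in at least 1 of the 6 comparisons, and 17 reached 5 FPKM and were counted in none.

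Larger differences, of at least 2 on the same scale (4 times in FPKM + 1), were found on the lower side of the E8.5 comparisons. Bmp2, Bmp5, Bmper and Tgfb1i1 passed this size in liver (4 genes, 8.16%, all loci 2.12%). The same 4 and Tgfb2 passed it in ventral pancreas (5 genes, 10.2%, all loci 1.49%), and the same 4 and Fst in dorsal pancreas (5 genes, 10.2%, all loci 1.18%). On the higher side Gdf15 passed it in liver (1 gene, 2.04%, all loci 2.29%) and 0 genes did in ventral or dorsal pancreas (all loci 1.96% and 1.45%). Within a stage 0 genes passed it. The shares of all loci were 1.04% higher and 1.51% lower in liver than in both pancreatic libraries, 0.913% higher and 0.768% lower in ventral than in dorsal pancreas, and 0.0404% higher and 0.00808% lower in foregut than in medial foregut.

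Across the 49 genes, the median of foregut minus medial foregut was -0.025 on the log2(FPKM + 1) scale, against 0.0019 for all named loci. Some of the genes differed moderately between the E8.5 libraries, and these mostly in 1 direction. Under a looser rule chosen after the values were seen, at least 1.5 times higher in FPKM and at 5 FPKM or more, 10 of the 49 genes (20.4%) were higher in medial foregut, against 2.93% of all named loci. In the other direction stood 1 gene (2.04%), Tgfbi, against 1.81% of all loci. The 10 were the ligand genes Bmp2, Bmp4, Bmp5, Bmp7, Tgfb1 and Tgfb2, the modulator gene Bmper, both inhibitory SMAD genes (Smad6 and Smad7) and the target Id1. The ratio of medial foregut to foregut was 1.92 for Bmp2, 2.08 for Bmp4, 1.90 for Bmp5, 1.91 for Bmper and 1.91 for Smad6. The summed cardiomyocyte markers had a ratio of 1.71, endoderm and epithelium 1.40, endothelium 1.32 and gut mesenchyme 1.21. The septum transversum and mesothelium markers had 1.70, mostly through Gata5 (31.8 and 60.1 FPKM in foregut and medial foregut). Of that list Wt1, Tbx18 and Upk3b were below 1 FPKM in both. The first endocrine cell markers had 2.25, mostly through Pyy (47.6 and 103 FPKM). Ratios were below 1 for the neural (0.397), pancreatic progenitor (0.404), notochord and floor plate (0.498), hepatoblast (0.758), leukocyte (0.879) and red cell markers (0.970). The part of these tissues in the difference was not tested.

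Among the BMP ligands, Bmp2 and Bmp5 were counted as lower in all 3 organs than at E8.5, Bmp4 only in dorsal pancreas, and Bmp7 in none. Bmp2 (chromosome 2, 133377817 to 133388633, build mm9) stood at 14.7 FPKM in foregut, 28.1 in medial foregut, 2.67 in liver, and 1.73 and 0.408 in ventral and dorsal pancreas. Both E8.5 values lay above all 3 E10.5 values, and the difference from foregut was -2.09 for liver, -2.52 for ventral and -3.47 for dorsal pancreas. Bmp5 (chromosome 9, 75623184 to 75748189) followed the same split, at 12.2 and 23.3 FPKM at E8.5 and at 1.49 in liver, and 0.499 and 1.71 in ventral and dorsal pancreas. Its differences from foregut were -2.41, -3.14 and -2.29.

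Bmp4 (chromosome 14, 47003540 to 47010312), the close relative of Bmp2, was counted as lower only in dorsal pancreas. It stood at 10.04 FPKM in foregut, 20.8 in medial foregut, 7.08 in liver, and 7.76 and 3.57 in ventral and dorsal pancreas. The E10.5 values lay below both E8.5 values, but in liver and ventral pancreas the difference from foregut was -0.45 and -0.33. Between the pancreatic libraries Bmp4 differed by 0.94 (ventral minus dorsal) and Bmp2 by 0.95, both short of the size rule. Summed over Bmp2, Bmp4 and Bmp5, the level was 36.9 FPKM in foregut, 72.2 in medial foregut, 11.2 in liver, and 9.99 and 5.68 in ventral and dorsal pancreas. The order of these sums was the order of the summed cardiomyocyte markers given above, and the part of heart or other adjoining tissue in it was not tested.

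Bmp7, a ligand made in many embryonic epithelia, stood at 18.7, 29.7, 16.8, 22.6 and 29.5 FPKM in foregut, medial foregut, liver, ventral and dorsal pancreas. The organs overlapped the E8.5 range, and Bmp7 was the highest BMP ligand in every library. Bmp6 lay between 2.10 FPKM in dorsal pancreas and 5.31 in medial foregut, at a locus that covers only 0.510% of the annotated gene. Gdf10, a BMP relative, reached 3.80 FPKM in liver and 2.10 in ventral pancreas and was below 1 FPKM in the other 3 libraries. Bmp3 did not exceed 0.552 FPKM.

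**Figure D2:**
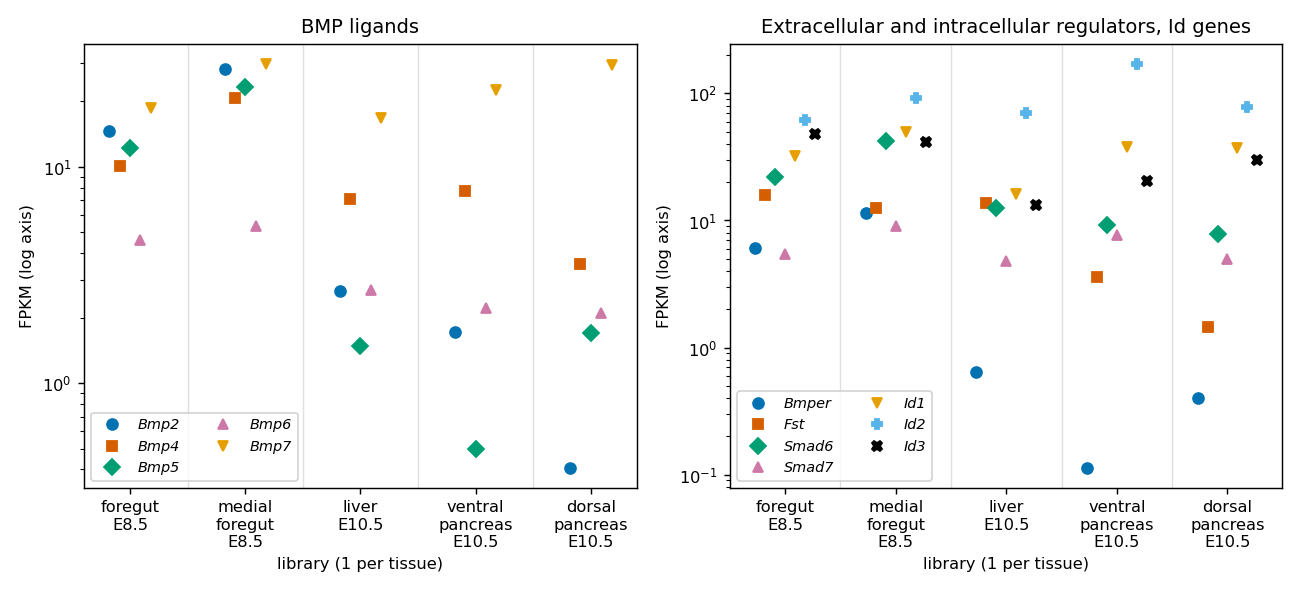
FPKM on a log axis for 5 BMP ligands (left) and for extracellular and intracellular regulators with 3 Id genes (right), 1 point per gene and library, so there are no error bars. Bmp2 ranges from 28.1 FPKM in medial foregut to 0.408 in dorsal pancreas while Bmp7 stays between 16.8 and 29.7. Bmper is below 1 FPKM in all 3 E10.5 libraries.

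Gdf11 stood higher at E10.5 than at E8.5, and Gdf15 was highest in liver. Gdf11, a ligand that acts through SMAD2 and SMAD3 and has a part in pancreatic endocrine development, stood at 7.60 and 6.23 FPKM in foregut and medial foregut and at 22.9 in liver, and 21.5 and 21.6 in ventral and dorsal pancreas. The groups did not overlap, the 3 organs lay within 0.09 of each other on the log2(FPKM + 1) scale, and Gdf11 was counted as higher in each of them. Gdf15, a stress-induced and divergent family member, stood at 0.349, 0.252, 9.43, 2.42 and 0.479 FPKM in foregut, medial foregut, liver, ventral and dorsal pancreas. Ventral pancreas, whose hepatoblast markers were second to those of liver, held the second value, and whether the 2 are related was not tested. Liver exceeded ventral pancreas by 1.61 and dorsal pancreas by 2.82.

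Of the 3 TGF-beta ligand genes, Tgfb1 and Tgfb2 were lowest in ventral pancreas, and Tgfb1 was highest in liver. Tgfb1 (chromosome 7, 26472036 to 26490002) stood at 6.57 FPKM in foregut, 10.9 in medial foregut, 15.2 in liver, and 1.51 and 4.24 in ventral and dorsal pancreas. Liver was the highest library and exceeded ventral pancreas by 2.69 and dorsal pancreas by 1.63. Tgfb1 is made by blood, endothelial and other cells. The leukocyte markers were highest in liver. The summed endothelial markers were lowest in ventral pancreas, although Flt1 among them was highest there, at 14.3 FPKM. The part of these cells in the Tgfb1 values was not tested. Tgfb2 (chromosome 1, 188446665 to 188530476), which is prominent in heart and mesenchyme, stood at 15.4, 27.4, 9.83, 2.30 and 11.7 FPKM. Ventral pancreas lay apart from the other 4 libraries, with a difference of -1.94 from dorsal pancreas, and liver exceeded it by 1.71. Tgfb3 was at 1.37 and 1.72 FPKM at E8.5 and at 3.95, 3.38 and 4.91 in liver, ventral and dorsal pancreas, and never reached 5 FPKM.

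Latent TGF-beta binding proteins tether the inactive ligand to the matrix. Ltbp3 stood at 5.80 and 3.93 FPKM at E8.5 and at 16.1 in liver, and 13.3 and 11.1 in ventral and dorsal pancreas, with no overlap between the stages. It was counted as higher in liver and in ventral pancreas, while dorsal pancreas exceeded foregut by 0.83. The Ltbp3 locus spans 179% of the annotated gene, so reads of a neighbour may be included. Ltbp4 was highest in liver, at 2.11, 1.67, 5.59, 1.57 and 3.93 FPKM in foregut, medial foregut, liver, ventral and dorsal pancreas. Ltbp1 stayed at or below 0.666 FPKM at a locus without strand that covers 0.517% of the annotated gene.

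The receptors were more even than the ligands, and 8 of the 11 had their lowest value in liver, as did 39.9% of all named loci. Tgfbr1, the type I receptor for TGF-beta, stood at 40.0, 35.8, 24.3, 40.2 and 49.4 FPKM in foregut, medial foregut, liver, ventral and dorsal pancreas, and Bmpr1a, a type I receptor for BMP, at 40.4, 39.9, 26.8, 38.9 and 38.6. Both were lowest in liver and neither was counted. Acvr2b, a type II receptor shared by activins, GDF11 and BMPs, stood at 32.8, 27.9, 13.0, 27.0 and 31.5 FPKM. Liver lay below the other 4 libraries, with a difference of -1.002 from ventral and -1.21 from dorsal pancreas, the former at the edge of the rule. With median-ratio rescaling the difference from ventral pancreas was -0.77 and the gene was no longer counted.

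A smaller group of receptors was highest in liver. Tgfbr3, or betaglycan, a co-receptor that presents TGF-beta and binds inhibin, stood at 5.02, 4.74, 15.9, 6.53 and 4.81 FPKM in foregut, medial foregut, liver, ventral and dorsal pancreas. The liver value lay above all others, by 1.16 over ventral and 1.54 over dorsal pancreas. Tgfbr2, the type II receptor for TGF-beta, stood at 2.77, 2.79, 6.20, 3.87 and 3.30 FPKM, and its differences between liver and the other libraries were between 0.56 and 0.93. Acvr1, a type I receptor used by BMPs, stood at 11.4, 13.2, 26.6, 16.0 and 9.67 FPKM, 1.37 higher in liver than in dorsal pancreas and 0.70 higher than in ventral pancreas.

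Acvr1b, the type I receptor for activin, was higher in the pancreatic buds, at 21.8 and 20.4 FPKM in ventral and dorsal pancreas against 10.7 in liver, 11.2 in foregut and 12.8 in medial foregut. The differences of liver from them, -0.96 and -0.87, were just short of the size rule. Bmpr1b, a type I BMP receptor, reached 4.26 FPKM in dorsal pancreas and was at 0.843 or less elsewhere. Acvr2a, a type II receptor, lay between 1.70 and 2.72 FPKM in all libraries, at a locus of 564% of the annotated length. Bmpr2 (6.99 to 10.8 FPKM) and Acvr1c (0.691 to 2.25 FPKM) are loci that cover 1.07% and 0.328% of their annotated genes.

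Extracellular modulators showed 2 patterns. Bmper, which encodes a secreted protein that binds BMPs and is made by endothelial and mesodermal cells, was an E8.5 gene. It stood at 6.02 FPKM in foregut and 11.5 in medial foregut, and at 0.640, 0.114 and 0.400 in liver, ventral and dorsal pancreas. The organs lay far below both E8.5 libraries, with differences of -2.10, -2.66 and -2.33 from foregut. Fst (chromosome 13, 115242470 to 115260081) encodes follistatin, which traps activins and, with lower affinity, some BMPs. It separated liver from the pancreatic buds, at 15.9, 12.6, 13.7, 3.61 and 1.46 FPKM in foregut, medial foregut, liver, ventral and dorsal pancreas. Liver lay within the E8.5 range and exceeded ventral pancreas by 1.68 and dorsal pancreas by 2.58. The Fst locus spans 264% of the annotated gene.

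Fstl1, a follistatin-like glycoprotein gene of mesenchymal cells, differed the other way, at 73.4, 74.8, 23.1, 56.5 and 64.5 FPKM. Liver was the lowest library, with differences of -1.25 from ventral and -1.44 from dorsal pancreas, and the gene was also counted with median-ratio rescaling (-1.02 and -1.23). Bmp1, which encodes a metalloprotease that cleaves the BMP antagonist chordin and processes procollagen and is no BMP ligand, was counted as higher in both pancreatic buds than at E8.5. It stood at 13.98 and 13.3 FPKM at E8.5, 21.7 in liver, and 32.7 and 38.8 in ventral and dorsal pancreas. The stages did not overlap. Chrdl1 and Fstl4 stayed at or below 2.26 and 1.12 FPKM. Noggin, chordin and the inhibin beta genes are not analysed here.

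All 5 signal transducers were lowest in liver, as were 39.9% of all named loci. Smad2 varied least among them, between 9.74 FPKM in liver and 11.4 in medial foregut, a range of 0.20 on the log2(FPKM + 1) scale. Smad1 lay between 10.45 FPKM in liver and 14.2 in ventral pancreas, and Smad5 between 17.6 in liver and 32.4 in dorsal pancreas. Smad3 was the only transducer counted in a comparison, at 28.8, 21.7, 11.9, 28.8 and 32.9 FPKM in foregut, medial foregut, liver, ventral and dorsal pancreas. It was counted as lower in liver than in both pancreatic libraries, with differences of -1.20 and -1.39, and was not counted with median-ratio rescaling (-0.98 and -1.19). The summed level of the TGF-beta and activin branch, Smad2 and Smad3, was 21.6 FPKM in liver against 38.7 and 43.3 in ventral and dorsal pancreas. That of the BMP branch, Smad1 and Smad5, was 28.0 against 39.2 and 45.3. Smad4, the common partner, stood between 14.6 FPKM in liver and 28.4 in foregut and its locus spans 5.38% of the annotated gene. The log2 ranges of Smad4 (0.92) and Smad5 (0.85) were above the median of all named loci, 0.79, and that of Smad1 (0.41) was below it.

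Among the inhibitors inside the cell, Smad6 followed the early ligands. Smad6 (chromosome 9, 63800882 to 63870784) encodes an inhibitory SMAD that BMP signalling itself induces. It stood at 22.1, 42.2, 12.6, 9.21 and 7.83 FPKM in foregut, medial foregut, liver, ventral and dorsal pancreas. All 3 organs lay below both E8.5 libraries, and the gene was counted as lower in ventral (-1.18 from foregut) and dorsal pancreas (-1.39). Smad7, which restrains both branches, overlapped between the stages, at 5.43, 9.06, 4.81, 7.71 and 4.97 FPKM. The ubiquitin ligase genes Smurf1 (9.12 to 13.3 FPKM) and Smurf2 (15.9 to 19.6 FPKM) varied little. Tgif1, a corepressor of SMAD-driven transcription, peaked in ventral pancreas, at 30.1, 30.002, 19.6, 53.3 and 32.7 FPKM. Liver minus ventral pancreas was -1.40, and the ventral value exceeded dorsal pancreas by 0.69.

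The Id genes encode helix-loop-helix proteins without a DNA-binding region that block basic helix-loop-helix factors, and they are the classical direct targets of BMP. Id1 (chromosome 2, 152561208 to 152563479) stood at 31.9 FPKM in foregut, 49.5 in medial foregut, 16.1 in liver, and 37.7 and 36.9 in ventral and dorsal pancreas. Liver was the lowest library, with differences of -1.18 from ventral and -1.15 from dorsal pancreas. These differences were -0.95 and -0.94 with median-ratio rescaling and were then not counted. Id3 was also lowest in liver, at 48.0, 41.8, 13.2, 20.5 and 29.96 FPKM, and its liver value differed by -1.79 and -1.60 from the E8.5 libraries. The order of its other libraries differed from that of Id1, and ventral pancreas differed by -1.19 from foregut. The Id1 and Id3 loci span 196% and 314% of the annotated genes.

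Id2 reached the highest level of any of the 49 genes, in ventral pancreas. Id2 (chromosome 12, 25778440 to 25781602) stood at 62.2, 91.7, 70.1, 169.8 and 78.5 FPKM in foregut, medial foregut, liver, ventral and dorsal pancreas. Ventral pancreas lay above the other 4 libraries, by 1.10 over dorsal pancreas. Id2 was the only gene of the set counted as higher in ventral than in dorsal pancreas. Liver, dorsal pancreas and the E8.5 libraries overlapped. Id4 was low everywhere, at 2.19, 2.28, 0.700, 1.76 and 2.04 FPKM, with liver lowest. Of the 4 Id genes, 3 were thus lowest in liver, as were 39.9% of all named loci, and Id2 was not.

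Because the Id genes are read as targets while differing in order, their upstream sequences are shown, as 250 bases before the annotated start from the RefSeq table (GRCm38.p6), for the 3 of 4 that matched (Id1 did not). The SMAD-related motifs searched on both strands were GGCGCC, a GC-rich sequence bound by BMP-activated SMADs, the palindrome of GTCT followed at once by AGAC, and CAGACA. Capitals mark the matches, which were of GGCGCC only. The Id2 window is chr12:25096093-25096342 on the minus strand, that of Id3 chr4:136143572-136143821 and that of Id4 chr13:48260866-48261115, both on the plus strand.
Id2: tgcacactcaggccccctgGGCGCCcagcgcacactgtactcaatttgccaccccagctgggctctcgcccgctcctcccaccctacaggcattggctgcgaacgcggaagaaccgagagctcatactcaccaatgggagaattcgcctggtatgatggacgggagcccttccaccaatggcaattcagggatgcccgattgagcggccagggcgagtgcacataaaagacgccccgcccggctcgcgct
Id3: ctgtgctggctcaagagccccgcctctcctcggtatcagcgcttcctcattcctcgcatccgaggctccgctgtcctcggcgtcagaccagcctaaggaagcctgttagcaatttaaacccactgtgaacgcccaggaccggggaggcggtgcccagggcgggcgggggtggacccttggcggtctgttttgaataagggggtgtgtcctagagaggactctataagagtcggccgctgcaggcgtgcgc
Id4: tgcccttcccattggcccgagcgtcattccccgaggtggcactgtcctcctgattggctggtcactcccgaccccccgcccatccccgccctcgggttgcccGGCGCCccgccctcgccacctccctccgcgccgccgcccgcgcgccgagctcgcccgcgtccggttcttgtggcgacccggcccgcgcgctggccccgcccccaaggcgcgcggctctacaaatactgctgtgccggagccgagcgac
GGCGCC stood once in the Id2 window, beginning at position -231 from the start, and once in the Id4 window, beginning at position -148. Of 32851 promoter windows of the same length, 9.59% hold GGCGCC, 17.1% hold CAGACA and 0.167% the palindrome. The GC content of the Id windows was 62.8% for Id2 and Id3 and 75.6% for Id4, against a median of 52.4% over all windows. No match in a window says only that these letters are not in it. Id2 and Id4 share the motif and differed in level and in the library with the highest value.

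**Figure D3:**
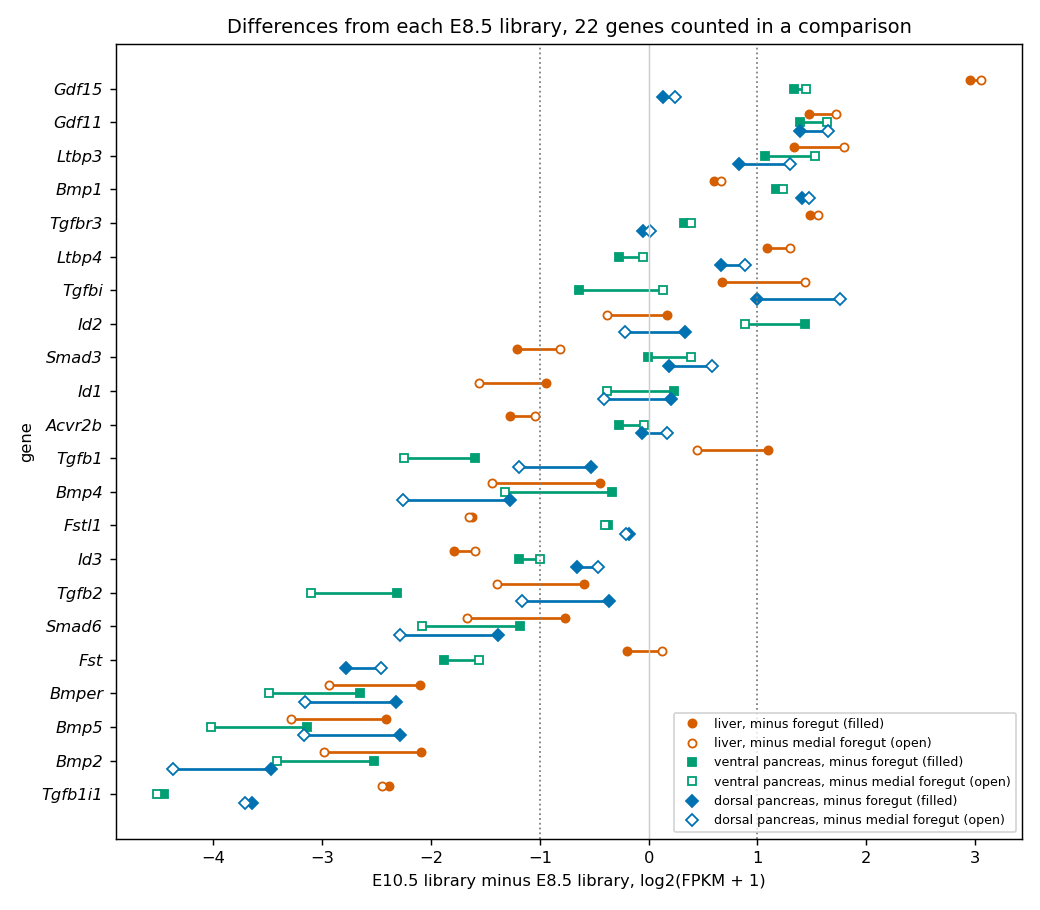
Difference of each E10.5 library from foregut (filled) and from medial foregut (open) on the log2(FPKM + 1) scale, for the 22 genes counted in at least 1 comparison; a bar joins the 2 differences of 1 library and dotted lines mark the size rule of 1. Bmp2, Bmp5, Bmper and Tgfb1i1 lie left of the lower line for all 3 organs, Gdf11 lies above 1 for all 3, and Fst lies left of the lower line for the pancreatic libraries and near 0 for liver.

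The 3 name matches outside the core pathway are listed for completeness. Tgfb1i1, which encodes the focal adhesion protein Hic-5 of smooth muscle and other contractile cells, had the largest range of the set on the log2(FPKM + 1) scale. It stood at 58.1, 60.9, 10.3, 1.70 and 3.72 FPKM in foregut, medial foregut, liver, ventral and dorsal pancreas, high where the cardiomyocyte markers were high, and their part in it was not tested. Tgfbi, a TGF-beta-induced matrix protein gene, stood at 5.20, 2.65, 8.89, 2.99 and 11.4 FPKM and differed by -1.63 between ventral and dorsal pancreas. Tgfbrap1, a receptor-associated protein gene, lay between 7.48 and 10.2 FPKM.

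**Figure D4:**
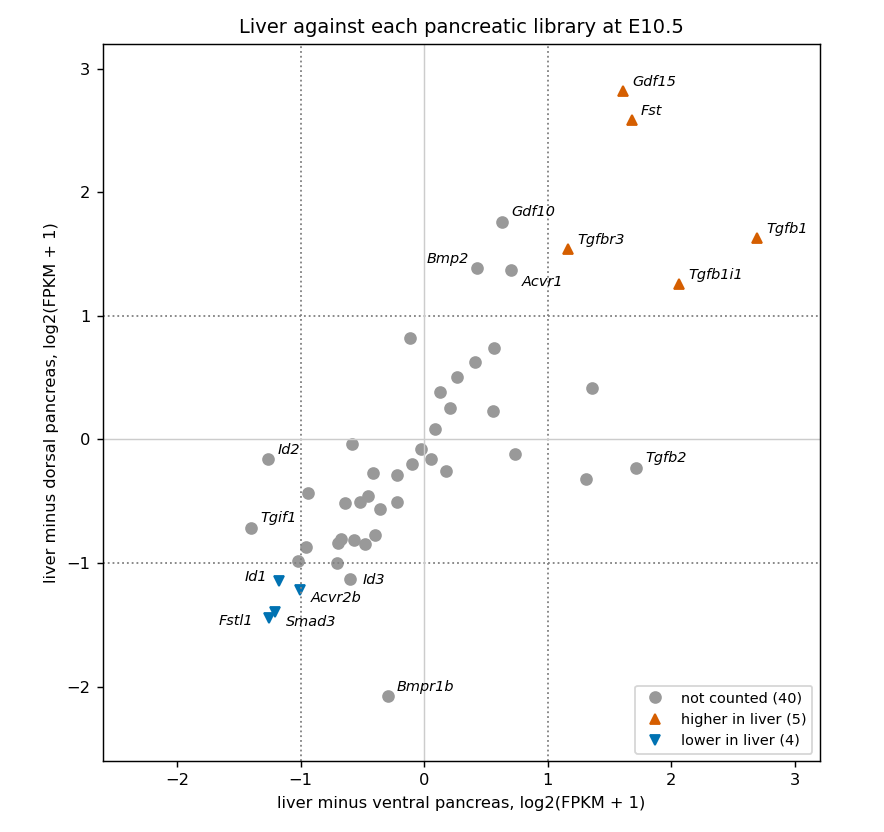
Liver minus ventral pancreas (horizontal) against liver minus dorsal pancreas (vertical) on the log2(FPKM + 1) scale, 1 point for each of the 49 genes, with the size rule of 1 as dotted lines. The 5 genes higher in liver are Fst, Gdf15, Tgfb1, Tgfb1i1 and Tgfbr3, the 4 lower ones are Acvr2b, Fstl1, Id1 and Smad3, and both axes share the liver library.

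Of 81 further genes of the pathway, listed by role, 64 were found under a single name. In liver 15 of them were lower and 2 higher than in both E8.5 libraries, in ventral pancreas 12 and 5, and in dorsal pancreas 12 and 6. The shares of all loci, in the same order of organs, were 6.08%, 3.31% and 2.80% lower and 5.24%, 6.38% and 4.36% higher. Against both pancreatic libraries 2 were higher in liver (all loci 3.11%) and 4 lower (5.36%). In ventral pancreas 6 were higher (all loci 3.28%) and 5 lower (2.47%) than in dorsal pancreas. In foregut 0 were higher (all loci 0.469%) and 7 lower (0.275%) than in medial foregut.

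Foxh1, Tdgf1 and Lefty2, named for the size of their differences, were at or near 0 in all 3 organs. Foxh1, the SMAD partner of Nodal responses, stood at 27.7 FPKM in foregut, 56.6 in medial foregut and 0.0731, 0.132 and 0.125 in liver, ventral and dorsal pancreas. The co-receptor gene Tdgf1 (Cripto) stood at 9.22 and 29.1 FPKM at E8.5, at 0.0401 in liver and 0.0424 in ventral pancreas, and was listed at 0 in dorsal pancreas. Lefty2, a Nodal antagonist, stood at 5.90 and 20.3 FPKM at E8.5, at 0.0374 in liver and 0.00407 in dorsal pancreas, and was listed at 0 in ventral pancreas. All 3 genes were higher in medial foregut than in foregut. Another Nodal antagonist, Lefty1, looked at after its values were seen, did not separate the stages, at 0.929, 2.18, 0.433, 0.989 and 0.802 FPKM in foregut, medial foregut, liver, ventral and dorsal pancreas. Cfc1, a Nodal co-receptor gene also added after its values were seen, stood at 3.83 and 9.55 FPKM at E8.5 and below 0.1 FPKM in the organs.

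Among the co-receptors, Rgma, which binds BMPs, stood at 29.6 and 17.0 FPKM at E8.5, 0.577 in liver, and 12.3 and 19.4 in ventral and dorsal pancreas. Liver thus stood apart from the pancreatic buds. Eng, the endothelial co-receptor endoglin, stood at 15.9, 22.2, 15.0, 0.865 and 6.81 FPKM. It was lowest in ventral pancreas, where the summed endothelial markers were lowest too. Among those markers Flt1 went the other way and was highest in ventral pancreas, at 14.3 FPKM. The part of endothelial cells in the Eng values was not tested.

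Among the secreted modulators, Pcsk6, encoding a protease that activates Nodal and other family ligands, was highest in liver, at 19.2 FPKM against 4.65 in ventral and 6.91 in dorsal pancreas. Thbs1, encoding thrombospondin, which can activate latent TGF-beta, was highest in ventral pancreas, at 30.1 FPKM against 7.40 in dorsal pancreas and 6.64 in liver. The fibrillin gene Fbn2 stood at 7.73 FPKM in ventral against 26.4 in dorsal pancreas, and Bgn at 12.2 against 3.43. Of 23 intracellular regulators found, 1, the phosphatase gene Ctdspl, was counted as lower in liver than in both pancreatic libraries (3.09 FPKM in liver, and 11.3 and 12.2 in ventral and dorsal pancreas), and 0 were counted between ventral and dorsal pancreas. With so few genes these counts are near the shares of all loci, 5.36% for the first and 3.28% and 2.47% for the second. Against E8.5, Foxh1 and Ctdspl were counted as lower in liver, Foxh1 as lower and Lemd3 as higher in each pancreatic library, and Foxh1 was lower in foregut than in medial foregut. Lemd3, encoding a nuclear membrane protein that restrains SMADs, stood at 3.33 and 3.81 FPKM at E8.5 and at 7.79, 10.8 and 9.43 in liver, ventral and dorsal pancreas.

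Of the 18 further target genes found, 10 were lower in liver than in both E8.5 libraries, 7 in ventral and 8 in dorsal pancreas. The same rule counts 6.08%, 3.31% and 2.80% of all loci as lower. On the higher side stood 1, 2 and 3 target genes, where the rule counts 5.24%, 6.38% and 4.36% of all loci. Several of the lower target genes are also heart or lateral mesoderm genes. Tbx20, a cardiac T-box gene, stood at 44.6 and 93.3 FPKM at E8.5, 2.94 in liver, and 1.45 and 0.0511 in ventral and dorsal pancreas. Hand1 stood at 12.2 and 36.5 FPKM at E8.5 and at 0.645, 1.71 and 3.54 in the organs. The cardiomyocyte markers were likewise high in both E8.5 libraries, and their part in these values was not tested. Msx1, a homeobox target of BMP, stood at 13.5 and 9.41 FPKM at E8.5 and at 0.142, 0.113 and 2.15 in liver, ventral and dorsal pancreas.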

How the data were processed

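The values in the table that the authors deposited are FPKM, per the file headers. TopHat 1.33, Cufflinks 1.3.0 and build mm9 are named, without their order or use, in the submitters' processing notes, and the method of scaling between libraries was not given in the sources used here. As for strand, the labels' protocols mention no marking, so overlapping genes cannot be separated. Each column was assigned to the sample whose label repeats its name.

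Members were found by gene name, and each had a strand and span compared with GENCODE M21 (GRCm38) by name: all 49 matched 1 gene, 0 lay on the other strand, and 5 covered under 30% of the annotated span. Coordinates of loci are those of the table (mm9), which does not state whether starts count from 0 or 1. Differences used log2(FPKM + 1) in Python 3.11.15 with pandas 2.3.3. The 6 comparisons set liver against the 2 pancreatic libraries, the pancreatic libraries and the E8.5 libraries against each other, and each organ against both E8.5 libraries. The counting rule was tested on simulated data. Whole-read steps were looked for at low values: between foregut and medial foregut the commonest ratio was shared by 2 of 97 loci below 0.1 FPKM in both, so no counts were recovered. The members, lists and rules were chosen with earlier results of these data known. Named in full were all members counted in a comparison, some core genes fixed by name, and up to 4 genes of each further list with the largest counted difference. A gene that this rule would name is not reported here.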

Additional observations from a re-analysis of the deposited data

Results flagged for a closer look

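These genes lay above both E8.5 libraries in 1 organ and below both in another, and those 2 organs differed by the counting rule. Some of the distances from E8.5 were small. Each organ is 1 library, and the differences were not tested. Tgfb1 lay above both E8.5 libraries in liver and below both in the pancreatic libraries, and liver exceeded ventral pancreas by 2.69 and dorsal pancreas by 1.63. Ltbp4 was above both in liver and below both in ventral pancreas, a difference of 1.36. The ventral value differed by only -0.27 from foregut and -0.05 from medial foregut. Acvr1 was above both in liver and below both in dorsal pancreas, a difference of 1.37. Its dorsal value differed by -0.21 from foregut and -0.41 from medial foregut. Smad3 was below both in liver and above both in dorsal pancreas, with a liver minus dorsal difference of -1.39. Its dorsal value differed by 0.19 from foregut and 0.58 from medial foregut. Tgif1 was below both in liver and above both in ventral pancreas, with a liver minus ventral difference of -1.40.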

How the results depend on the processing

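Over 12 counts and 12 alternative settings, 81 of 112 alternatives gave a count within 1.5 times the reported one, 14 gave fewer genes and 17 gave more. This tally includes settings that could not differ. Leaving out other-strand and partial loci could not change a count, because none of the partial loci was counted and no gene lay on the other strand. A minimum of 1 FPKM equals no minimum, because a difference of 1 already needs 1 FPKM in the higher library. The balance of higher and lower genes turned for liver against the pancreatic libraries with totals of 1000000 (5 and 4 to 5 and 7) and for liver against E8.5 with median ratios (5 and 7 to 7 and 6). With a size of 2 in place of 1, the counts for liver against both pancreatic libraries and for ventral against dorsal pancreas were 0 in both directions. Against the E8.5 libraries they were 1 higher and 4 lower in liver, 0 higher and 5 lower in ventral pancreas, and 0 higher in dorsal pancreas. A pseudocount of 5 FPKM gave 2 higher (all loci 2.11%) and 1 lower (2.59%) in liver than in the pancreatic libraries. Against E8.5 it gave 3 higher in liver (all loci 3.71%) and 1 higher in ventral pancreas (3.30%). A pseudocount of 0.5 FPKM gave 2 higher in ventral than in dorsal pancreas (all loci 3.52%). It gave 1 (Bmp4) lower in foregut than in medial foregut (all loci 0.380%). Either a minimum of 1 FPKM or no minimum gave 3 higher (all loci 4.53%) and 4 lower (3.52%) in ventral than in dorsal pancreas. Both settings gave 4 higher in dorsal pancreas than at E8.5 (all loci 6.34%). Rescaling to a total of 1000000 raised every value while the minimum and pseudocount stayed fixed. It gave 7 lower in liver than in the pancreatic libraries (all loci 12.0%), and 6 higher (5.56%) and 7 lower (4.37%) in ventral than in dorsal pancreas. It also gave 1 higher in foregut than in medial foregut (all loci 1.48%). Against E8.5 it gave 6 higher in ventral (all loci 11.8%) and 5 in dorsal pancreas (8.23%). Median-ratio rescaling gave 1 lower (Fstl1) in liver than in the pancreatic libraries (all loci 3.89%). Against ventral pancreas alone 8 were higher in liver (all loci 3.96%). Against medial foregut alone 11 were lower in liver (all loci 7.80%) and 4 higher in dorsal pancreas (5.44%). The alternatives against 1 library were chosen after seeing the data. The cause of these changes was not tested. With 1 library per tissue, no spread between embryos could be measured, and without counts the depth behind low values is unknown. No paired analysis was possible because there was 1 library per tissue.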
